A study of Mus musculus with 20 samples.

Results

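Rgs2, Mcu and Atp2c1 are 3 genes of calcium control around fertilization, and they were followed over 5 stages of mouse development, namely oocytes, 1-cell, 2-cell and 8-cell embryos and blastocysts. Every probe set that the array's gene annotation gives to one of these symbols was taken, which made 3 of the 9607 genes that the array names and 7 of the 22511 probe sets other than controls, with 2 for Rgs2, 2 for Mcu and 3 for Atp2c1. The genes were chosen by their measured values on these same arrays. The choosing comparison was inferred as 2-cell against 1-cell embryos for Rgs2. For Mcu (through probe set 1442031_at) and Atp2c1 (through 1431196_at) it was inferred as 1-cell embryos against oocytes. Other comparisons may have contributed to the choice, so a comparison said below to share no array with the choosing one may still not be independent of it. Those choosing differences are therefore given as descriptions, with no test. The group name rests on what the genes are known to do.

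Each stage was measured on 4 Affymetrix MOE430B arrays, an array of 25-base probes read in 1 colour, and the total RNA on each had been amplified by in vitro transcription in 2 rounds. The labels give the stage and a replicate number and nothing on strain, age, treatment, culture or the meiotic stage of the oocytes, so all 5 groups are described by stage alone. Nothing in the labels says that the 4 arrays of a stage came from separate collections of embryos, so the spread behind every p-value is that between these arrays and could be technical. Precision is limited by the number of arrays, and no depth or detection call goes with the values.

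Egg activation begins when the fertilizing sperm delivers a phospholipase C into the egg, which makes inositol trisphosphate, opens the inositol trisphosphate receptor of the endoplasmic reticulum and sets off repeated waves of cytosolic calcium. These waves drive cortical granule release, the exit from meiosis and the recruitment of maternal messenger RNA, and they last only while pumps refill the stores and mitochondria keep supplying ATP. RGS2 speeds the shutting off of G proteins of the Gq class, which otherwise activate phospholipase C, and in mouse eggs it is known to hold back calcium release before fertilization. MCU is the pore of the mitochondrial calcium uniporter, and ATP2C1, also called SPCA1, is the pump that loads the Golgi with calcium and manganese.

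The upstream sequences of the 3 genes are shown because the brightest probe set of each gene was lower in 8-cell than in 2-cell embryos, as given below. The other tested probe sets of these genes were not called at that step, and a shared cause was not tested. They are the 250 bases before each annotated start, taken from RefSeq on mouse build GRCm38.p6, all on the minus strand and written 5′ to 3′. Rgs2 lies at chr1:144004150-144004399, Mcu at chr10:59616693-59616942, and the starts of Atp2c1 lie at chr9:105521258-105521507 for start 1 and chr9:105495134-105495383 for start 2. Capitals mark CCAAT (the CCAAT box), GGGCGG (the GC box) and TGACG (the first part of a cAMP response element) on either strand, reverse complements included.
Rgs2 upstream: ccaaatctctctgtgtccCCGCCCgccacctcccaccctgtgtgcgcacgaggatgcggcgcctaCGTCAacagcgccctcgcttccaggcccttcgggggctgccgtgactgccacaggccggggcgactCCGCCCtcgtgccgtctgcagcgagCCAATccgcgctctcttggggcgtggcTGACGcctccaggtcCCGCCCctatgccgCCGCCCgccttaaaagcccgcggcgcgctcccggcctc
Mcu upstream: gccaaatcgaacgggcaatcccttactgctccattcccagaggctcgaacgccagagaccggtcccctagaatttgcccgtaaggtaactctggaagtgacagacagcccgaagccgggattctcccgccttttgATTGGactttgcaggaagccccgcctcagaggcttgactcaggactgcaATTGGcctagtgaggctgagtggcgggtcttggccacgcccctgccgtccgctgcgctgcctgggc
Atp2c1 upstream, start 1: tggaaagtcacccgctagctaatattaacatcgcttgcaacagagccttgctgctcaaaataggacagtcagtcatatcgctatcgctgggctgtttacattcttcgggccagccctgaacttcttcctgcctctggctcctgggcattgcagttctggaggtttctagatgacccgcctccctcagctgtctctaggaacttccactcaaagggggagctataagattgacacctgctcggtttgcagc
Atp2c1 upstream, start 2: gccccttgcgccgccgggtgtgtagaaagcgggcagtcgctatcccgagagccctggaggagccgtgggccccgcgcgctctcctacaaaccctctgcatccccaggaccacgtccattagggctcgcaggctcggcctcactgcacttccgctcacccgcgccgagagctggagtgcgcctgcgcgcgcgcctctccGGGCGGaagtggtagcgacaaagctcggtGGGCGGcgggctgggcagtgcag
The Rgs2 window held 1 CCAAT box, 4 GC boxes and 2 response element motifs, and its GC content was 72.4% with 30 CpG. The Mcu window held 2 CCAAT boxes and none of the other motifs, at 60.8% GC with 15 CpG. The windows of Atp2c1 differed from each other, with 51.6% GC, 7 CpG and no motif at start 1, against 70.8% GC, 28 CpG and 2 GC boxes at start 2. Among 32851 RefSeq windows of the same length, the median GC content was 52.4%, 33.8% held a CCAAT box, 32.7% a GC box and 17.8% the response element motif. TATAAA, the TATA box, was searched on both strands as well, was in 12.4% of all windows and was not among the letters of these 4. These matches describe the letters and are not binding sites. The array's probe sets carry no genome positions in the files, so no start of Atp2c1 can be tied to a probe set.

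Intensities are the authors' deposited values on a linear scale. Differences are of log2(intensity + 20), which understates the change of dim probe sets, and levels of different probe sets are not set against each other because probes bind unequally. In these bulk samples, fewer cells of a type and less RNA per cell cannot be told apart, and every array is scaled to 1 mean, so each level is relative to the other transcripts on its array. The test covered the 15234 probe sets that reached 82.6, the median of the table, on 4 arrays or more. Of the 7 probe sets, 6 passed and 1439215_at of Atp2c1 did not. Probe set 1442031_at of Mcu reached the median on 5 arrays, 4 of them from 1-cell embryos, so it passed through the stage where it is high and its comparisons with that stage are given with no test. Mcu 1453166_at reached it on all 20 arrays and Atp2c1 1442742_at on 17. Counts over the 6 are descriptions and support nothing. For each gene the probe set with the highest mean is described first.

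Markers of oocytes and of blastocysts were set beside the stage labels. No listed markers were particular to 1-cell, 2-cell or 8-cell embryos, so those labels were not checked. Of 21 listed oocyte markers, 10 were on the array, and their summed intensity was 117293 to 150141 in oocytes, 120749 to 129737 in 1-cell embryos, 32381 to 62734 in 2-cell embryos, 6410 to 7740 in 8-cell embryos and 21855 to 26892 in blastocysts. The late increase in that sum is mostly Khdc3, with a mean of 20822 in blastocysts. Of 20 trophectoderm and inner cell mass markers, 5 were on the array. Their sum was 8451 to 12328 in blastocysts, against 1500 to 1752 in 8-cell embryos and 595 to 645 in oocytes. Most of the blastocyst sum is Tmprss2, with a mean of 9176. From 8-cell embryos to blastocysts Pdgfra and Fgfr2 also had higher means, while Esrrb went from 657 to 390 and Gata6 from 568 to 415. Of 33 cumulus and granulosa markers, 9 were on the array and summed to 1484 to 1846 in oocytes, 1196 to 1731 in 1-cell embryos, 2864 to 3429 in 2-cell embryos, 1771 to 2129 in 8-cell embryos and 1112 to 1597 in blastocysts, with Amhr2, read by an x_at probe set, which can match other genes, at a mean of 2053 in 2-cell embryos. Of 31 sperm and spermatid markers, 11 were on the array and summed to 969 to 1828 in oocytes and 1124 to 1350 in 1-cell embryos, with overlapping ranges. No array was a copy of another, since the most alike pair still differed in 99.7% of probe sets.

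On its brightest probe set, Rgs2 was bright in oocytes and 1-cell embryos, was far lower in 2-cell embryos and went on falling to the blastocyst. Probe set 1447830_s_at read 14627, 17368, 13847 and 16828 in oocytes, 13973, 14438, 14787 and 15511 in 1-cell embryos, and 1091, 414, 814 and 671 in 2-cell embryos. It read 126, 174, 236 and 75.1 in 8-cell embryos, and 39.6, 44.7, 86.0 and 26.7 in blastocysts. The oocyte and 1-cell ranges overlapped, every 2-cell array was below every 1-cell array, every 8-cell array was below every 2-cell array, and the blastocyst and 8-cell ranges overlapped through 1 array of each. An s_at probe set may match more than 1 transcript.

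The mean of Rgs2 was 14677 ± 648 in 1-cell embryos, against 15667 ± 1697 in oocytes (SD, n = 4 each), a difference of -0.09 ± 0.27 (SE) that was not called, with a 95% interval of -0.65 to 0.48 and an adjusted p of 0.92. In 2-cell embryos it was 748 ± 282, which is -4.34 on the log2 scale against 1-cell embryos and is the difference that chose the gene. Against oocytes the 2-cell difference was -4.43 (adjusted p = 9.24e-12), in a comparison that shares the 2-cell arrays with the choosing one. Since oocytes and 1-cell embryos had overlapping ranges, this largely repeats the choosing difference and adds no support to it.

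Rgs2 fell further at each later step. Its mean was 153 ± 68.5 in 8-cell embryos, a difference of -2.16 against 2-cell embryos (95% interval -2.73 to -1.60, adjusted p = 9.81e-07), and this comparison shares the 2-cell arrays with the choosing one. In blastocysts the mean was 49.2 ± 25.6, a difference of -1.29 against 8-cell embryos (95% interval -1.86 to -0.73, adjusted p = 0.00147). That last step shares no array with the comparison that chose Rgs2, and neither does blastocyst against oocyte, where the difference was -7.88 (95% interval -8.45 to -7.32, adjusted p = 6e-17). The blastocyst level lies below the table's median on 3 of 4 arrays, where log2(intensity + 20) is flattened, and with a pseudocount of 80 the difference from 8-cell embryos was -0.82 (adjusted p = 0.00885).

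The second Rgs2 probe set, 1443250_at, was dim and moved less. It read 85.3, 135.5, 93.1 and 13.1 in oocytes, 179, 153, 146 and 184 in 1-cell embryos, 34.5, 151.2, 37.2 and 128.8 in 2-cell embryos, 16.6, 14.8, 50.9 and 42.6 in 8-cell embryos, and 27.6, 129.0, 43.7 and 16.5 in blastocysts. The 1-cell arrays were all above the oocyte arrays, and the other neighbouring stages overlapped. Its 1-cell difference from oocytes was 1.06 ± 0.48 and was not called (95% interval 0.07 to 2.06, adjusted p = 0.239), and its blastocyst difference from oocytes was -0.47 (95% interval -1.47 to 0.52, adjusted p = 0.488). The 2 probe sets of Rgs2 had a Pearson r of 0.53 over the 20 arrays, which share their stages.

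**Figure D1:**
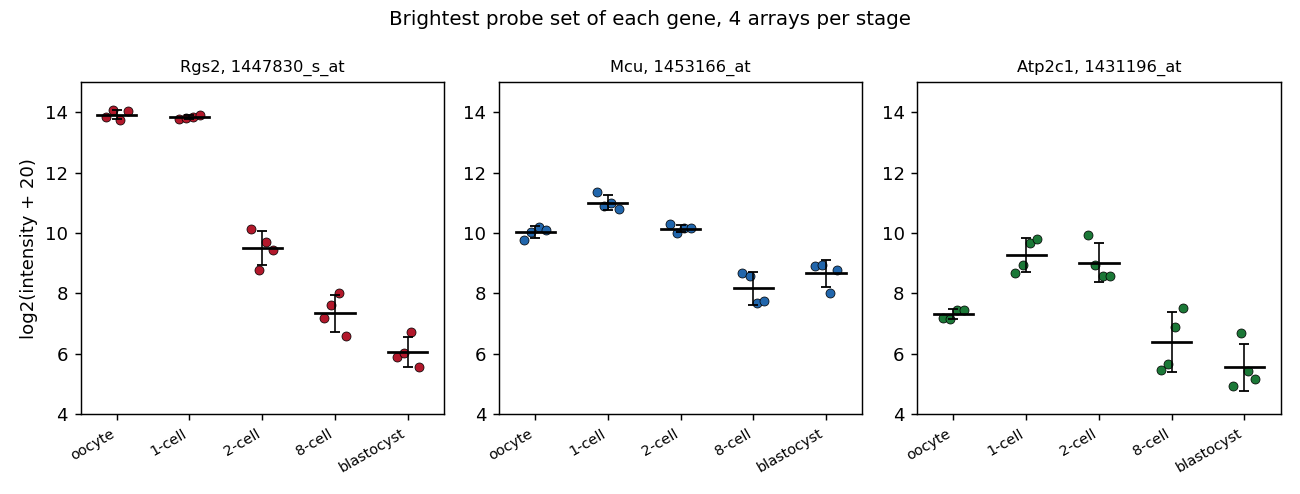
Log2(intensity + 20) of the brightest probe set of Rgs2, Mcu and Atp2c1 by stage, with 1 point per array, the bar at the mean and whiskers of 1 SD (n = 4). Rgs2 sits near 13.9 in oocytes and 1-cell embryos and at 6.05 in blastocysts, while Mcu and Atp2c1 are highest at the 1-cell stage and lower at the 8-cell stage.

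Mcu was present in oocytes, stood at its highest in 1-cell embryos, overlapped the oocyte range again in 2-cell embryos and fell below it by the 8-cell stage. Probe set 1453166_at read 860.0, 1022, 1169 and 1084 in oocytes, 2586, 1899, 2002 and 1747 in 1-cell embryos, and 1226, 999, 1116 and 1126 in 2-cell embryos. It read 391, 357, 183 and 193 in 8-cell embryos, and 464, 472, 235 and 419.5 in blastocysts. Every 1-cell array lay above every oocyte and every 2-cell array, every 8-cell array lay below every 2-cell array, and the blastocyst and 8-cell ranges overlapped. Within the 8-cell stage, replicates 1 and 2 were the high ones and replicates 3 and 4 the low ones.

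The mean of Mcu was 2059 ± 367 in 1-cell embryos, against 1034 ± 131 in oocytes, a difference of 0.97 on the comparison that chose the gene, given with no test. At the 2-cell stage it was 1117 ± 92.9, lower than in 1-cell embryos (difference -0.86, 95% interval -1.33 to -0.39, adjusted p = 0.00671). Since the 1-cell arrays had been chosen for being high, that fall shares them and is not independent of the choice. With quantile normalization it was -0.52 with an adjusted p of 0.139, so its call was lost. Against oocytes the 2-cell level differed by 0.11 (95% interval -0.35 to 0.58, adjusted p = 0.79).

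From the 2-cell stage on, no array is shared with the comparison that chose Mcu. In 8-cell embryos the mean was 281 ± 109, lower than in 2-cell embryos (difference -1.99, 95% interval -2.45 to -1.52, adjusted p = 1.93e-07). The blastocyst mean was 398 ± 111, higher by 0.50 than in 8-cell embryos, with a 95% interval of 0.03 to 0.97 and an adjusted p of 0.161 that did not pass. Without blastocyst replicate 3, the lowest of that stage, this difference was 0.72 with an adjusted p of 0.0278. Blastocysts were below oocytes (difference -1.37, adjusted p = 2.52e-05), in a comparison that shares the oocyte arrays with the choosing one.

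The other Mcu probe set, 1442031_at, showed the 1-cell stage even more sharply and little elsewhere. It read 16.0, 14.2, 34.4 and 56.2 in oocytes, 148, 241, 251 and 282 in 1-cell embryos, and 91.3, 36.8, 18 and 34.0 in 2-cell embryos, and from 5.5 to 20.5 on the 8 arrays of 8-cell embryos and blastocysts. All 4 of its 1-cell arrays lay above all of its other arrays. The difference that chose Mcu was that of this probe set, 2.36. Its 2-cell difference from 1-cell embryos was -2.03, given with no test. Its 8-cell difference from 2-cell embryos was -0.86 (95% interval -1.60 to -0.11, adjusted p = 0.0836) and was not called. Over the 20 arrays the 2 probe sets had a Pearson r of 0.80.

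Atp2c1 was low in oocytes, high in both 1-cell and 2-cell embryos and lower than in oocytes by the blastocyst stage. Probe set 1431196_at read 126, 121, 154 and 154 in oocytes, 389, 466, 800.4 and 881 in 1-cell embryos, and 962, 475, 358 and 362.5 in 2-cell embryos. It read 23.4, 30.3, 97.4 and 163 in 8-cell embryos, and 10.4, 81.9, 22.7 and 15.4 in blastocysts. All 8 arrays of 1-cell and 2-cell embryos lay above the oocyte arrays, the 1-cell and 2-cell ranges overlapped, and every 8-cell array lay below every 2-cell array. The spread within stages was wide, and in 8-cell embryos replicates 3 and 4 were the high ones, the reverse of Mcu.

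The mean of Atp2c1 was 634 ± 243 in 1-cell embryos, against 139 ± 18 in oocytes, a difference of 1.97 that chose the gene. In 2-cell embryos it was 539 ± 287 and differed from 1-cell embryos by -0.27 ± 0.42, with a 95% interval of -1.14 to 0.61 and an adjusted p of 0.732. Against oocytes the 2-cell level was higher by 1.71 (95% interval 0.83 to 2.58, adjusted p = 0.00404), and this comparison shares the oocyte arrays with the choosing one.

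Atp2c1 then fell in 8-cell embryos, where its mean was 78.5 ± 65.5 (difference -2.64 against 2-cell embryos, 95% interval -3.51 to -1.76, adjusted p = 2.81e-05). No array of that step is in the comparison inferred as the choosing one. Probe set 1431196_at reached the table's median on 2 of 4 arrays in 8-cell embryos and on 0 in blastocysts. Below that level log2(intensity + 20) is flattened, and with a pseudocount of 80 the 8-cell difference was -1.96 (adjusted p = 6.03e-06). Blastocysts averaged 32.6 ± 33.3 and differed from 8-cell embryos by -0.83, which was not called (95% interval -1.70 to 0.04, adjusted p = 0.219). Against oocytes, blastocysts were lower (difference -1.76, adjusted p = 0.00163), with oocyte arrays shared with the choice. With a pseudocount of 80 in place of 20 this difference was -0.99 (adjusted p = 0.00729).

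The remaining probe sets of Atp2c1 did not follow this course. Probe set 1442742_at read 149, 198, 149 and 121 in oocytes, 25.8, 119.6, 103.6 and 175.4 in 1-cell embryos, 187, 98.0, 103.6 and 130.8 in 2-cell embryos, 96.4, 99.2, 59.4 and 154.8 in 8-cell embryos, and 74.2, 120.2, 164.0 and 97.1 in blastocysts. All of its stages overlapped with their neighbours in the order of means. On the choosing comparison its difference was -0.63, opposite in sign to that of 1431196_at, and at the 8-cell step it was -0.31 (95% interval -1.05 to 0.42, adjusted p = 0.573). Its Pearson r with 1431196_at was 0.14 over the 20 arrays. Probe set 1439215_at was below the table's median on every array, with stage means of 10.4, 9.32, 4.95, 14.4 and 25.3 from oocyte to blastocyst, and was not tested. The course described for Atp2c1 therefore rests on 1 of its 3 probe sets.

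**Figure D2:**
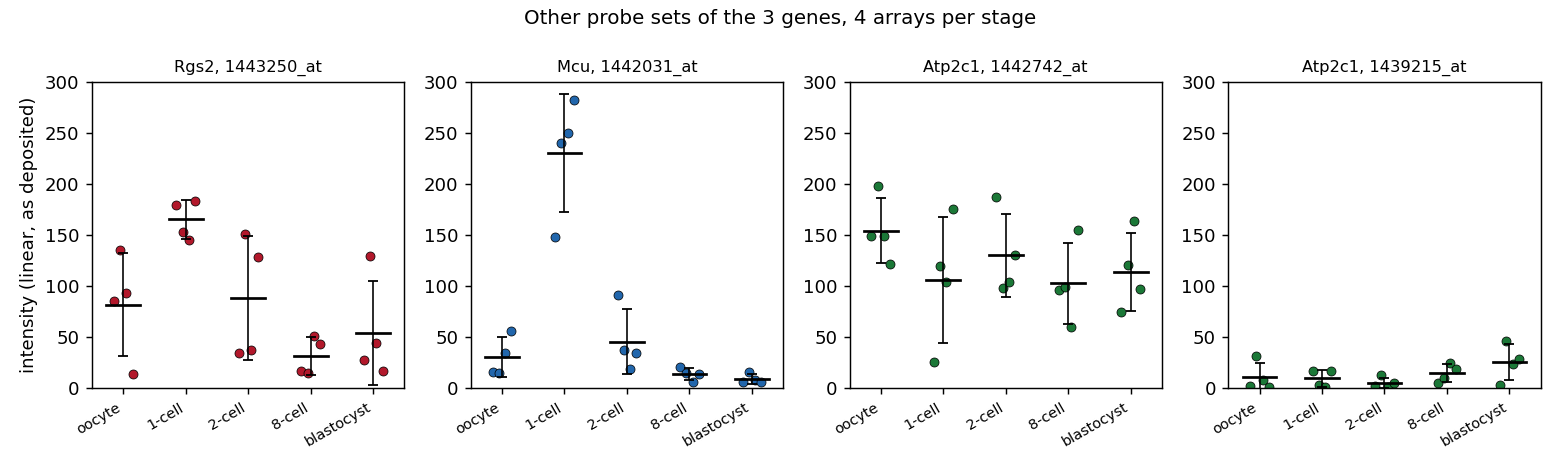
Linear intensity of the remaining 4 probe sets of the 3 genes by stage, with 1 point per array, the bar at the mean and whiskers of 1 SD (n = 4). Mcu 1442031_at has a mean of 230.4 in 1-cell embryos and of 45.0 or less elsewhere, and Atp2c1 1442742_at has means between 102 and 154 at all stages.

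By stage, the order of mean levels was oocyte, 1-cell, 2-cell, 8-cell and blastocyst for Rgs2, with overlap between the first pair and between the last pair. For Mcu it was 1-cell, 2-cell, oocyte, blastocyst and 8-cell, with 2-cell and oocyte overlapping and blastocyst and 8-cell overlapping. For Atp2c1 it was 1-cell, 2-cell, oocyte, 8-cell and blastocyst, and only 2-cell and oocyte were apart among neighbours in that order. As a description over the 20 arrays, the brightest probe sets had a Pearson r of 0.80 for Rgs2 with Mcu, 0.75 for Mcu with Atp2c1 and 0.62 for Rgs2 with Atp2c1.

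Counted over the tested probe sets of these genes, 3 of 6 were lower in 8-cell than in 2-cell embryos, the brightest one of each gene. Over all 15234 probe sets, 13.4% were lower and 14.1% higher at that step. In blastocysts against 8-cell embryos, 1 of 6 was lower, that of Rgs2, where 6.58% of all were lower and 7.98% higher. In blastocysts against oocytes, 3 of 6 were lower, where 16.1% of all were. In 2-cell embryos against oocytes, 1 of 6 was higher, that of Atp2c1, and 1 was lower, that of Rgs2, where 11.9% of all were higher and 9.68% lower. In 2-cell against 1-cell embryos, 1 of the 3 tested probe sets of Mcu and Atp2c1 was lower, that of Mcu, where 9.34% of all were lower and 12.2% higher. In 1-cell embryos against oocytes, 2.67% of all probe sets were higher and 4.26% lower, and nothing is read from the members there. At that step 1 of the 2 probe sets of Rgs2 had an unadjusted p under 0.05 in limma and 0 were called.

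**Figure D3:**
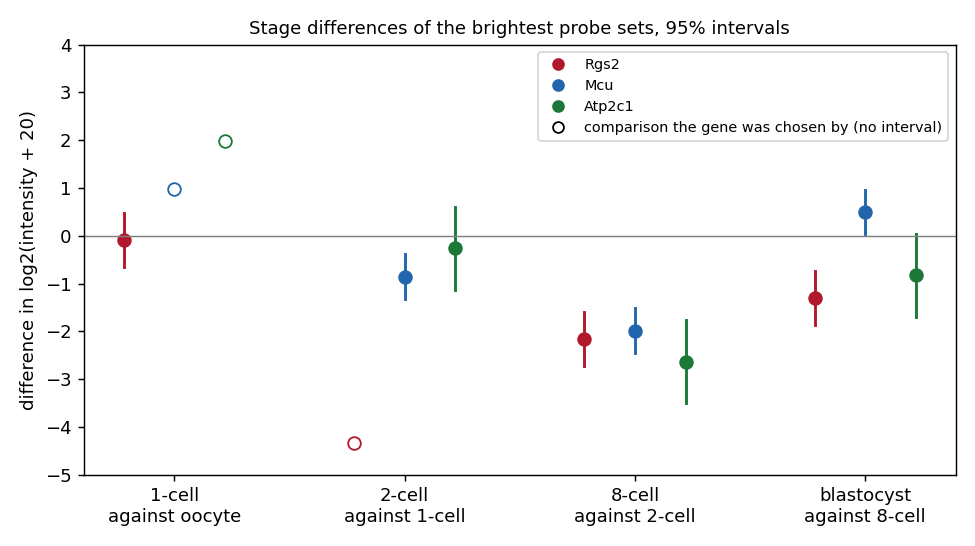
Differences in log2(intensity + 20) for the brightest probe set of Rgs2, Mcu and Atp2c1 at the 4 consecutive steps, later stage minus earlier. Bars are 95% intervals from limma, and open points without bars are the comparisons by which a gene was chosen, for Mcu through its other probe set. All 3 genes lie below 0 at the 8-cell step, at -2.16, -1.99 and -2.64, and at the blastocyst step only the interval of Rgs2 lies wholly below 0.

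Other measures moved with these stages. Among the 2-cell arrays, replicate 1 was the highest for the brightest probe sets of all 3 genes and for 1442031_at and 1442742_at. For 1443250_at of Rgs2 it was the lowest, at 34.5. Replicate 1 also had the highest oocyte marker sum, 62734, against 45397, 32381 and 39044 in replicates 2 to 4. Without it, the 8-cell difference from 2-cell embryos was -1.96 for Rgs2, -1.94 for Mcu and -2.33 for Atp2c1, all still called, and the 2-cell difference of Atp2c1 from oocytes was 1.40 with an adjusted p of 0.0238. The 18S ribosomal RNA control probe set read 37007 ± 4510 in 1-cell embryos, against 650.2 ± 197 in oocytes (SD, n = 4 each), at the step where Mcu and Atp2c1 were higher, and it read 2004 ± 308 in 2-cell embryos, at the step where Rgs2 and Mcu were lower than in 1-cell embryos. Its part in those differences was not tested. At the 8-cell step the brightest probe sets of all 3 genes fell. There the added bacterial and phage control probe sets averaged 12.61 in 8-cell embryos, against 11.51 in 2-cell embryos, on a log2 scale. At that step the Gapdh 3′ over 5′ log2 ratio, a sign of how far amplification reached, was 0.98 ± 0.37, against 2.22 ± 0.34. The same ratio for beta-actin moved less, at 1.92 ± 0.10 against 2.28 ± 0.22. The part of these measures was not tested. The cumulus and granulosa sum was higher in 2-cell than in 1-cell embryos, where Rgs2 was lower. That increase lies in Amhr2, read by an x_at probe set, with means of 167 in 1-cell and 2053 in 2-cell embryos. The other markers of the list moved both ways, as Foxl2 from 756 to 579 and Inhba from 43.3 to 86.7. The part of the sum in the Rgs2 difference was not tested.

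The genes whose profile was most like that of Rgs2, by Pearson r of log2 values over the 20 arrays among 7274 genes, were Zar1 (r = 0.99), Fbxw22 (0.99), S1pr3 (0.98), Kat14 (0.98) and Fbxw18 (0.98). Zar1, an oocyte RNA-binding protein, had stage means of 13194 ± 845 in oocytes, 14685 ± 2339 in 1-cell, 1189.5 ± 293 in 2-cell and 465 ± 97.4 in 8-cell embryos and 309 ± 43.6 in blastocysts. S1pr3, a receptor for sphingosine 1-phosphate that couples to G proteins, had means of 993 ± 98.5, 848 ± 76.2, 220 ± 39.7, 82.4 ± 25.2 and 56.7 ± 13.0 in the same order. All of these arrays share the 5 stages, so r mostly ranks genes by their stage course.

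Most like Mcu were Ceacam20 (r = 0.97), Zfp513 (0.96), Glis3 (0.95), Fchsd2 (0.95) and Atxn1l (0.95). Ceacam20 averaged 1707 ± 77.5 in oocytes, 5171 ± 908 in 1-cell, 2690.3 ± 757 in 2-cell and 199 ± 35.8 in 8-cell embryos and 322 ± 62.3 in blastocysts. Most like Atp2c1 were Cep170 (r = 0.94), Fbxl5 (0.92), Rmnd5a (0.91), Otud4 (0.91) and Hsd17b13 (0.91). Cep170, a centrosomal protein, averaged 604 ± 59.5 in oocytes, 1428 ± 50.9 in 1-cell, 1317 ± 449 in 2-cell and 341 ± 34.1 in 8-cell embryos and 229 ± 42.5 in blastocysts, so it stayed high in 2-cell embryos as Atp2c1 did.

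Other genes of calcium handling and egg activation were taken from 7 lists of 255 genes, of which 113 were on the array and 93 were tested, leaving out the 3 genes. In 1-cell embryos against oocytes, 8 were higher and 6 lower, beside 2.67% and 4.26% of all tested probe sets. In 2-cell against 1-cell embryos, 8 were higher and 14 lower, beside 12.2% and 9.34%. In 8-cell against 2-cell embryos, 11 were higher and 18 lower, beside 14.1% and 13.4%, and in blastocysts against 8-cell embryos, 15 were higher and 7 lower, beside 7.98% and 6.58%. The counts of each list below stand beside the same shares. These counts include genes that passed the filter mainly through the stage where they are high, among them Plcd3 and Slc39a14. The median differences of the 93 were 0.04, 0.13, -0.06 and 0.05 at the 4 steps, beside 0.02, 0.07, 0.10 and -0.07 over all tested probe sets. The stage means below are intensities (mean ± SD, n = 4).

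Among mitochondrial calcium genes, 13 of 30 were tested. In 1-cell embryos against oocytes, where Mcu was higher, 2 rose, Mcur1 and Pdp1, while 3 had an unadjusted p under 0.05 upward and 0 fell in limma, also at an unadjusted p. Mcur1, a regulator of the uniporter, averaged 2229 ± 435 in 1-cell embryos, against 934 ± 26.1 in oocytes (difference 1.22, adjusted p = 0.000199). It fell back to 1096 ± 148 in 2-cell embryos (difference -1.0, adjusted p = 0.000537). Pdp1, the calcium-activated phosphatase of pyruvate dehydrogenase, averaged 1085 ± 125 in 1-cell embryos, against 707 ± 82.4 in oocytes, and 320.2 ± 37.7 in 2-cell embryos. In 2-cell against 1-cell embryos, 2 of the 13 rose and 3 fell.

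From 2-cell to 8-cell embryos, where Mcu fell, 2 of the 13 mitochondrial genes rose and 4 fell. Micu2, a calcium-sensing gatekeeper of the uniporter, averaged 197 ± 49.9 in 8-cell embryos, against 1310.4 ± 261 in 2-cell embryos (difference -2.63, adjusted p = 2.71e-10). Opa1, which fuses inner mitochondrial membranes, averaged 214 ± 55.0 in 8-cell embryos, against 1057 ± 203 in 2-cell embryos (difference -2.21, adjusted p = 4.63e-09). Slc25a12, a calcium-regulated aspartate and glutamate carrier, went the other way, with 1673 ± 134 in 8-cell embryos, against 471 ± 59.2 in 2-cell embryos (difference 1.79, adjusted p = 7.1e-09). In blastocysts 4 rose and 1 fell. Opa1 returned to 1152 ± 198, Micu2 to 488 ± 56.3 and Slc25a12 fell to 214 ± 37.0, and the median of the list was 0.47 at this step, beside -0.07 over all probe sets.

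**Figure D4:**
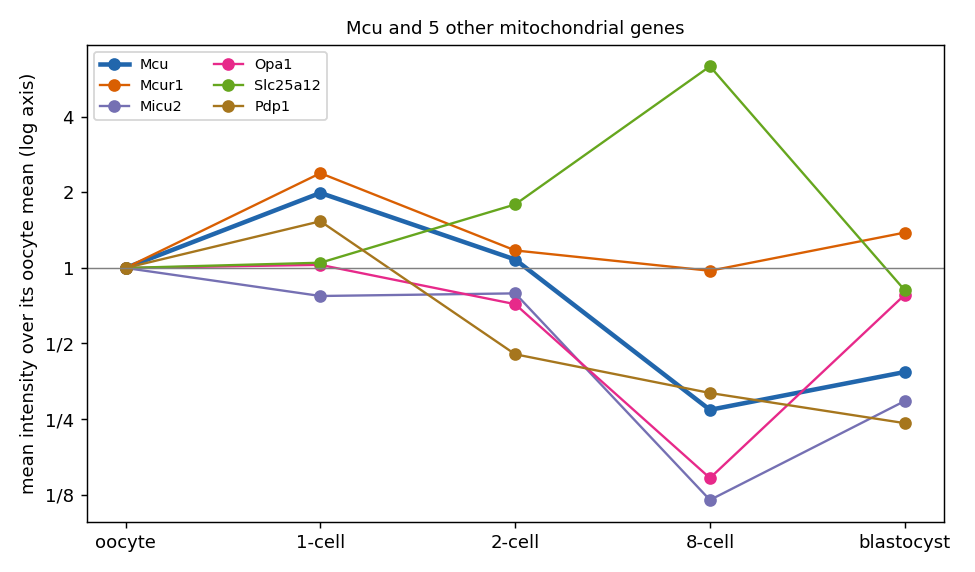
Stage means of Mcu (thick line) and 5 other mitochondrial genes, each divided by its own oocyte mean, on a log axis. Mcu and Mcur1 stand highest at the 1-cell stage, Micu2 and Opa1 have their lowest mean at the 8-cell stage as Mcu does, and Slc25a12 has its highest there.

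Of the Golgi genes beside Atp2c1, 10 of 19 were tested. Tmem165, a Golgi protein needed for manganese balance, moved the other way from Atp2c1 at the 1-cell step, with 138 ± 42.3 in 1-cell embryos, against 322 ± 31.5 in oocytes (difference -1.15, adjusted p = 0.000454). It then stood at 751 ± 129 in 2-cell embryos (difference 2.31 against 1-cell, adjusted p = 3.74e-09) and at 1549 ± 265 in blastocysts (difference 1.36 against 8-cell, adjusted p = 2.58e-05). It was the only called gene of the list at the 1-cell and 2-cell steps. In 8-cell embryos Sdf4, a calcium-binding protein of the Golgi lumen, fell to 152 ± 60.7, against 327 ± 73.6 in 2-cell embryos (difference -1.08, adjusted p = 0.0144). Calu, a calcium-binding protein of the secretory pathway, rose to 294 ± 38.7, against 179.7 ± 16.5 in 2-cell embryos (difference 0.65, adjusted p = 0.025). In blastocysts Slc39a14, a metal transporter that carries manganese, averaged 123 ± 27.5, against 49.4 ± 31.6 in 8-cell embryos (difference 1.14). It reached the filter level only on blastocyst arrays, so this difference is given with no test.

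Of the RGS family and G protein genes beside Rgs2, 17 of 56 were tested. At the 2-cell step, where Rgs2 was lower, 2 of the 17 rose and 0 were called lower in limma, with 2 lower at an unadjusted p under 0.05. In 8-cell against 2-cell embryos 4 rose and 0 fell, also at an unadjusted p, and in blastocysts 2 rose and 0 were called lower, with 5 lower at an unadjusted p under 0.05. Grk6, a kinase that turns off G protein coupled receptors, averaged 873 ± 258 in 8-cell embryos, against 77.5 ± 38.0 in 2-cell embryos (difference 3.27, adjusted p = 8.58e-09), and was 14.5 ± 7.33 in 1-cell embryos. Gna13, a G protein alpha subunit, averaged 924 ± 254 in 8-cell embryos, against 339.9 ± 27.9 in 2-cell embryos (difference 1.36, adjusted p = 4.05e-06), and 2492 ± 409 in blastocysts. Gng2, a gamma subunit, rose to 416 ± 187 in blastocysts, against 100 ± 40.5 in 8-cell embryos (difference 1.84, adjusted p = 0.000478). Gnas, the alpha subunit that stimulates adenylyl cyclase, fell to 57.9 ± 25.3 in 1-cell embryos, against 140.5 ± 31.1 in oocytes (difference -1.10, adjusted p = 0.0483).

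Of the genes of calcium release, among them phospholipases C, inositol trisphosphate receptors and Gq class G proteins, 9 of 27 were tested. In 1-cell embryos against oocytes 0 were called in limma, and 1 was lower at an unadjusted p under 0.05. At the 8-cell step 3 rose and 2 fell. Gnaq, the Gq alpha subunit itself, was the 1 gene of this list called at the 2-cell step, where Rgs2 was lower. It averaged 185 ± 47.7 in 2-cell embryos, against 311.5 ± 74.8 in 1-cell embryos (difference -0.70, adjusted p = 0.0121). It then averaged 366 ± 47.2 in 8-cell embryos (difference 0.94 against 2-cell, adjusted p = 0.000783), and 694 ± 77.0 in blastocysts. Itpr2, an inositol trisphosphate receptor, averaged 104 ± 51.7 in 8-cell embryos, against 374 ± 158 in 2-cell embryos (difference -1.73, adjusted p = 0.000266). Gna14, another alpha subunit of the Gq class, averaged 49.5 ± 20.2 in 8-cell embryos, against 213 ± 51.2 in 2-cell embryos (difference -1.76, adjusted p = 0.000456). Plcd3, a phospholipase C, averaged 159.6 ± 73.1 in 8-cell embryos, against 19.4 ± 6.34 in 2-cell embryos (difference 2.12). It passed the filter mainly through its 8-cell arrays, so this difference is given with no test, although it is among the 3 counted as higher.

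Of the calcium sensors and effectors, 13 of 46 were tested. In 1-cell embryos 1 rose, Prkcd, a protein kinase C, with 219.5 ± 27.2, against 133 ± 17.7 in oocytes (difference 0.64, adjusted p = 0.0471). At the 8-cell step 4 fell and 0 rose in limma, also at an unadjusted p. Wee2, the oocyte kinase that must act for the egg to leave meiosis and that was read by an x_at probe set, averaged 177 ± 62.4 in 8-cell embryos, against 13296 ± 3355 in 2-cell embryos (difference -6.10, adjusted p = 4.23e-16). Ppp3cb, a catalytic subunit of calcineurin, averaged 135 ± 88.7 in 8-cell embryos, against 437 ± 76.7 in 2-cell embryos (difference -1.81, adjusted p = 0.000249). It rose to 727 ± 78.0 in blastocysts (difference 2.53, adjusted p = 8.47e-06).

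Of the genes of calcium entry and of the pumps other than Atp2c1, 18 of 47 were tested, and in 1-cell embryos 2 rose and 2 fell. Atp2b1, a plasma membrane calcium pump, averaged 1459.7 ± 214 in 1-cell embryos, against 785 ± 188 in oocytes (difference 0.90, adjusted p = 0.00712). It fell to 362 ± 27.9 in 2-cell embryos (difference -1.95, adjusted p = 1.07e-07), a step at which the ranges of Atp2c1 overlapped. Stim2, a sensor of calcium in the endoplasmic reticulum, averaged 340.0 ± 115 in 1-cell embryos, against 594 ± 69.1 in oocytes (difference -0.82, adjusted p = 0.0334), and 133 ± 22.2 in 2-cell embryos. At the 8-cell step 3 fell and 0 were called higher in limma, with 4 higher at an unadjusted p under 0.05. Cacna2d1, a calcium channel subunit, was among those that fell, with 30.6 ± 30.8 in 8-cell embryos, against 191 ± 15.8 in 2-cell embryos (difference -2.23, adjusted p = 5.99e-05).

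Of the genes of the egg surface, zona and cortical granules, 13 of 31 were tested. At the 2-cell step 7 fell and 0 rose in limma, also at an unadjusted p, and the median difference of the list was -1.13, beside 0.07 over all probe sets. Padi6, a protein of the egg's cytoplasmic lattices, averaged 5731 ± 1909 in 1-cell embryos, against 18815 ± 1532 in oocytes (difference -1.77, adjusted p = 9.82e-05), a step at which Rgs2 was not called. Astl, the cortical granule protease that cleaves the zona, averaged 2599 ± 61.7 in 1-cell embryos, against 4399 ± 393 in oocytes (difference -0.75, adjusted p = 0.00719), and 989 ± 78.7 in 2-cell embryos. Nsf, a membrane fusion factor, averaged 953 ± 65.0 in 1-cell embryos, against 431 ± 113 in oocytes (difference 1.14, adjusted p = 0.00224), and 136 ± 53.4 in 2-cell embryos (difference -2.71, adjusted p = 2.76e-09), so its highest mean, like that of Mcu, was in 1-cell embryos.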

How the data were processed

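Expression was measured on 20 Affymetrix MOE430B arrays, 4 per stage, and stages and replicate numbers come from the sample titles. Per the labels, total RNA went through 2 rounds of in vitro transcription. The deposited values are linear intensities, 1 per probe set, for 22575 probe sets of which 64 are controls. Summarization, software and scaling target have no description in the sources used here. The values show that the authors had scaled every array to 1 mean, since the mean after trimming 2% at each end is 150.02 to 150.04 on all arrays, while medians run from 67.8 to 93.2. Arrays carry no depth, and their number limits the precision.

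The deposited intensities were used as given and turned into log2(value + 20), 20 being the table's 20th percentile. Probe sets at or above the median of 82.6 on at least 4 arrays were fitted with stage means in limma 3.58.1 under R 4.3.3, using every array (15 residual degrees of freedom) and an intensity trend in eBayes. Benjamini-Hochberg adjustment was over all 15234 tested probe sets within each comparison, and an adjusted p under 0.05 was called. The fit was tested on simulated data. Symbols came from the platform annotation, updated through Entrez identifiers for 14486 of 14661 probe sets with 1 symbol. Those with several (245) or none (7605) were never named. RefSeq upstream windows were matched by symbol for all 3 genes.

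The genes, lists and tests were chosen with earlier results of these data known. Named genes are all probe sets of the 3 genes, from each list up to 3 called genes with the smallest p at each step, the 5 genes closest by Pearson r, and the brightest markers. 1 probe set stood for each listed gene, that of the highest mean. Alternatives were other pseudocounts, filters, normalizations, fits, probe sets and left-out replicates.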

Additional observations from a re-analysis of the deposited data

Results flagged for a closer look

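Of 35 stage groups of the 7 probe sets, each of 4 arrays, none held a single array far from the other 3 by Dixon's ratio at its critical value for 4 samples. Of 190 groups of the other named pathway genes, 13 did. Chance flags about 1 in 20 groups, so a number of this kind is near what chance gives. The single array read high at 233.7 for Astl in blastocysts, with the nearest other array at 169.1. It read 431.3 for Atp2b3, a plasma membrane calcium pump, in 1-cell embryos (nearest 347.8), 135.8 for Cabin1, a calcineurin-binding protein, in 8-cell embryos (nearest 92.1) and 202.8 for Calu in oocytes (nearest 134.7). It read 54.3 for Gnaz, a G protein alpha subunit, in 1-cell embryos (nearest 18.8), 829.8 for Pdp1 in oocytes (nearest 674.6) and 95.2 for Plcd3 in oocytes (nearest 23.6). It read 550.3 for Ppp3cb in 2-cell embryos (nearest 413.7) and 2999.7 for Slc39a10, a zinc importer, in 2-cell embryos (nearest 2743.3). The single array read low at 155.3 for Calu in 2-cell embryos (nearest 185.6), 27.5 for Itpr2 in 8-cell embryos (nearest 121.0), 717.5 for Mcur1 in blastocysts (nearest 1447.0) and 384.5 for Tmem165 in 8-cell embryos (nearest 649.5).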

How the results depend on the processing

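The 15 tested differences of the brightest probe sets had 450 values under the alternatives other than a change of probe set. No called difference changed direction. The Mcu difference of 2-cell embryos from oocytes, which was not called, ran from -0.09 to 0.33 over the processing alternatives, so its sign was not kept. Of the 450 values, 448 kept their side of the threshold. The exceptions were the Mcu difference of 2-cell from 1-cell embryos under quantile normalization, -0.52 (adjusted p = 0.139), and the Mcu difference of blastocysts from 8-cell embryos without blastocyst replicate 3, 0.72 (adjusted p = 0.0278), with 0.33 to 0.72 over all left-out replicates. Over the processing alternatives, called values moved by over 1.5 times with a pseudocount of 80, for Rgs2 in blastocysts against 8-cell embryos (range -1.54 to -0.82) and Atp2c1 in blastocysts against oocytes (range -2.27 to -0.99). Changing the probe set changed more. With 1443250_at, Rgs2 gave -0.97 for 2-cell against 1-cell, -0.95 for 8-cell against 2-cell (adjusted p = 0.156), 0.39 for blastocyst against 8-cell (0.682), 0.093 for 2-cell against oocyte (0.927) and -0.47 for blastocyst against oocyte (0.488). With 1442031_at, Mcu gave 2.36 for 1-cell against oocyte, -0.86 for 8-cell against 2-cell (0.0836) and -0.75 for blastocyst against oocyte (0.109). With 1442742_at, Atp2c1 gave -0.63 for 1-cell against oocyte, -0.31 for 8-cell against 2-cell (0.573), -0.24 for 2-cell against oocyte (0.716) and -0.41 for blastocyst against oocyte (0.411). 1439215_at was below the filter and gave no value. The cause of these changes was not tested. Among the other calcium and egg activation genes, the 8 higher in 1-cell embryos than in oocytes were 5 under quantile normalization, 5 without the intensity trend, and 4 to 8 over the left-out replicates, with 4 without 1-cell replicate 1 and 5 without 1-cell replicate 3. The 8 higher in 2-cell than in 1-cell embryos were 5 under a filter at the 75th percentile, and the 7 lower in blastocysts than in 8-cell embryos were 4 in a fit of those stages alone, which has fewer arrays. Replicate numbers did not pair the arrays: 40 same-number pairs had correlations of their deviations from -0.062 to 0.063, and 4 of 20 arrays were closest to their own number. With the replicate block, the Mcu difference of 8-cell from 2-cell embryos was -1.99 (adjusted p = 2.98e-07) and 1047 probe sets were called in 1-cell embryos against oocytes, against 1055 without it.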

Other observations

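Mcu and Atp2c1 were both taken as chosen for being higher in 1-cell embryos than in oocytes. On their brightest probe sets both were lower in 8-cell than in 2-cell embryos, a comparison that shares no array with the first. Of all 406 probe sets called higher in 1-cell embryos, 197 (48.5%) were called lower at that later step, where 13.4% of all tested probe sets were, and 44 (10.8%) were called higher, where 14.1% were. The 197 make up 9.7% of the probe sets lower at the 8-cell step. These shares are a description, and a probe set that is bright in the early stages passes the filter more readily.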
